A study of Mus musculus with 24 samples.

Results

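Mock-treated mouse embryonic fibroblasts kept in culture until day 7 were compared with mock-treated fibroblasts at day 2, over all genes of the count table. The comparison uses 6 of the 24 RNA-seq libraries of the series, 3 mock libraries at day 7 and 3 mock libraries at day 2, chosen by treatment and day in the labels. The series as a whole studied fibroblasts pushed towards a heart muscle identity by retroviral cocktails, and the mock cells were its controls. The other 18 libraries are day 7 and day 2 fibroblasts given the cocktails GMT, GHMT and AGHMT, named by initials: in the field, G, M and T are the heart factors Gata4, Mef2c and Tbx5, H is Hand2 and A is the kinase Akt1.

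All groups were fibroblasts grown from E13.5-14.5 embryos of C57BL/6 mice, with no genotype other than the strain in the labels, and RNA was extracted with TRIzol. The mock group carried the treatment label Mock at 7 days or 2 days, and the cocktail groups received the retroviruses in a pair of rounds before an induction medium with horse serum, B-27 and insulin-selenium-transferrin. The labels state neither whether mock cells received an empty virus nor whether they were moved from fibroblast medium to induction medium, so days in culture, medium and cell density cannot be told apart in this comparison. A primary embryonic culture of this kind can hold several cell types, the number of embryos behind it is not given, and the labels leave unsaid whether each replicate was a culture of its own. The p-values therefore cover the spread between libraries alone, and that spread may be technical. No batch is given in the labels, and a batch that followed the day cannot be told apart from it. In bulk RNA, fewer cells of a type and less RNA per cell cannot be told apart.

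Fibroblasts make the fibres and ground substance of connective tissue, chiefly fibrillar collagens, elastin and small proteoglycans, and they change their gene expression as a dish fills and growth slows. They also answer interferons, signalling proteins that act through membrane receptors, STAT proteins and interferon response factors to switch on a broad antiviral gene set. Proliferating cells draw on glycolysis and on the making of ribosomes, and they express mitotic genes only in part of the cell cycle.

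The 6 mock libraries held 32544426 to 36325681 counts. A count was found for 22720 to 22817 genes in the day 7 libraries and for 23590 to 23905 genes in the day 2 libraries, and the 10 highest genes took 10.7% to 11.18% of counts at day 7 and 7.15% to 7.52% at day 2. The closest pair of replicates differed beyond sampling noise, with a chi-square per degree of freedom of 2.681. The first principal component held 81.7% of the variance of the 6 libraries and separated the days. As a check of the labelled cell type, the summed level of 10 fibroblast markers was 54800 to 61200 CPM at day 7 and 30960 to 33660 CPM at day 2. These markers include the collagens Col1a1, Col1a2 and Col3a1, and Col1a1 had the highest mean at 16500 CPM. The 20 fibroblast identity genes described below summed to 7826, 7632 and 7598 CPM at day 7, against 7549, 7646 and 7524 CPM at day 2. CPM here are counts scaled to a common library size, with TMM factors that adjust the totals for composition.

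Mock fibroblasts at day 7 had much lower interferon-stimulated genes than at day 2, together with lower antigen presentation, mitotic, ribosome biogenesis and glycolysis genes. Genes of collagen fibres, elastic fibres and small proteoglycans were higher at day 7, as were genes of complement, insulin-like growth factors, imprinted loci and Wnt signalling. Markers of macrophages and of mesothelium were higher as well. Of 17576 genes tested, 9754 (55.5%) changed by edgeR's quasi-likelihood test at a Benjamini-Hochberg adjusted p under 0.05, with 5217 genes higher (29.7%) and 4537 lower (25.8%) at day 7. With scaling by library totals in place of TMM factors the counts were 4036 genes higher and 6134 lower, as the median over all genes shifted by -0.103 on the log2 scale. At least 2-fold changes made up 1479 genes higher (8.41%) and 955 genes lower (5.43%), and all 3 day 7 libraries lay above all 3 day 2 libraries for 33.7% of genes and below them for 30.8%. The median log2 change over all genes was 0. Because 55.5% of all genes changed, the count of a gene group is read below against these shares. Changes of single genes are log2 differences of day 7 minus day 2 with their standard error (SE) and the adjusted p of edgeR's test, so that 1 is a 2-fold difference.

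**Figure D1:**
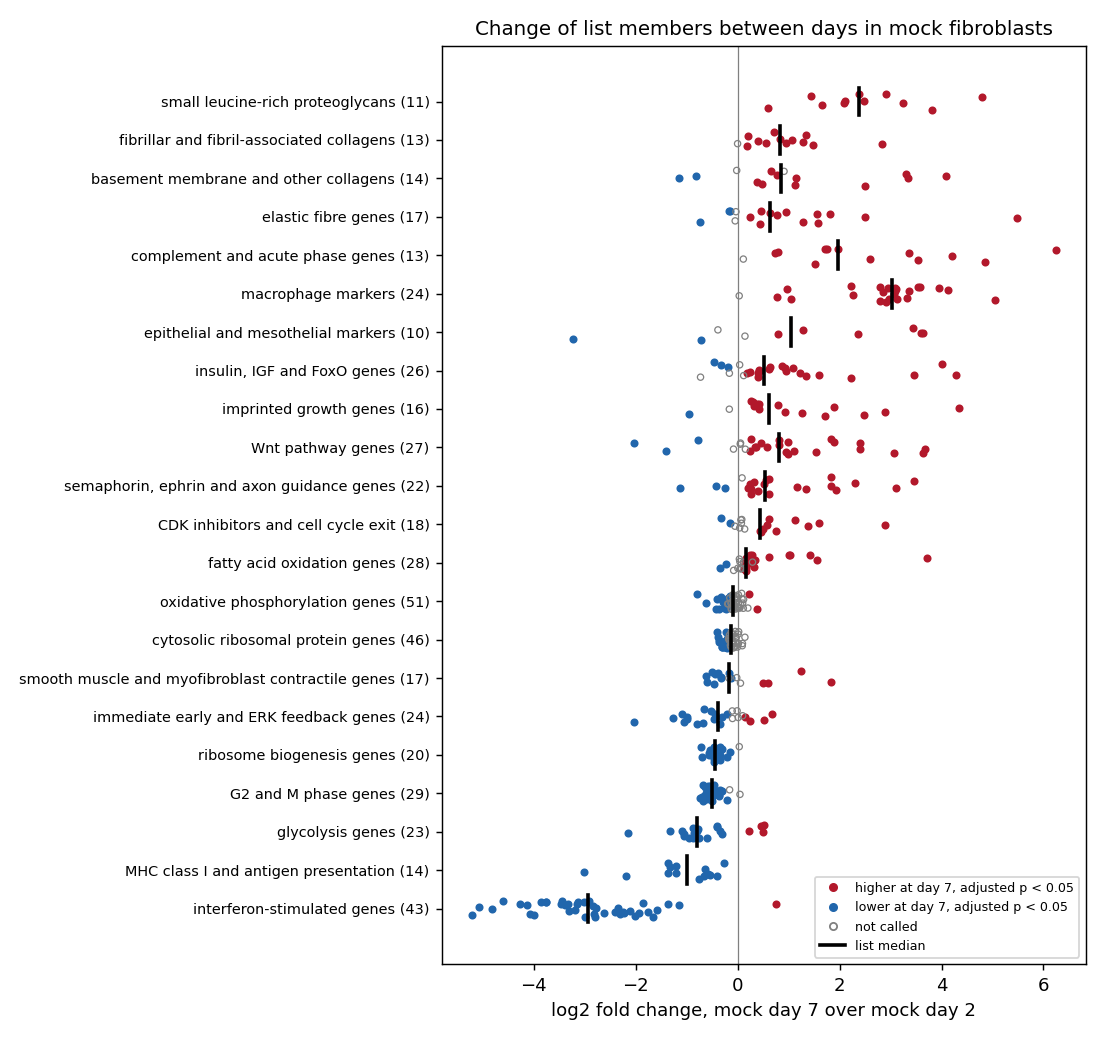
Log2 change between mock day 7 and mock day 2 (x axis, day 7 minus day 2) for the tested members of 22 gene groups (rows, 1 point per gene, bars at the medians). Interferon-stimulated genes centre on -2.94 and glycolysis genes on -0.8, while small leucine-rich proteoglycans centre on 2.38 and macrophage markers on 3.02.

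Interferon-stimulated genes were lower almost as a whole. Of 43 such genes tested, 42 fell at day 7 and 1 rose, against 25.8% of all genes lower, and their median log2 change was -2.94. Every one of the 42 fell at least 2-fold. Ifit1 (chr19:34640871-34650009, GRCm38), whose product binds viral RNA that lacks the host cap, had 28.1, 14.9 and 64.6 CPM in the day 7 libraries, against 326, 468 and 369.7 CPM in the day 2 libraries. All 3 day 7 libraries lay below all 3 day 2 libraries, and the log2 change was -3.44 ± 0.31 (SE, adjusted p = 8.02e-10). Isg15 (chr4:156199424-156200818), a ubiquitin-like protein that is joined to other proteins, had 33.6, 20.8 and 65.2 CPM in the day 7 libraries, against 382, 516 and 419 CPM in the day 2 libraries, again without overlap, at -3.46 ± 0.27 (SE, adjusted p = 6.52e-11).

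A transcription factor of the pathway was lower with its targets. Irf7 (chr7:141262706-141266481), the factor that amplifies type I interferon production, had 13.98, 8.99 and 21.7 CPM in the day 7 libraries, against 129, 184 and 153 CPM in the day 2 libraries, a fall by 10.5-fold at -3.39 ± 0.20 (SE, adjusted p = 4.47e-13). The groups did not overlap, the third day 7 library was the highest of its day and the second day 2 library was the highest of its day. Antiviral effectors fell as well. Oasl1, which resembles the oligoadenylate synthetases and restrains Irf7 translation in mice, had 1.21, 0.754 and 1.71 CPM in the day 7 libraries, against 36.8, 59.7 and 40.2 CPM in the day 2 libraries and the lowest log2 change among the named genes at 5 CPM or more, -5.22 ± 0.25 (SE, adjusted p = 5.66e-15). Oas2, a synthetase that activates RNase L, fell by 3.12 ± 0.22 and Rsad2, the antiviral enzyme viperin, fell by 4.82 ± 0.31. Mx1, a gene of the interferon-inducible GTPases, changed by -5.07 ± 0.35, and Ifit3, a partner of Ifit1, by -4.13 ± 0.24.

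The 12 genes with the lowest log2 change among those at 5 CPM or more whose libraries did not overlap were Oasl1, Cxcl10, Mx1, Tgtp2, Rsad2, Ifit3b, Ifi205, Cxcl9, Apol9b, Ccl5, Oas1g and Zbp1. They are antiviral effectors, interferon-inducible GTPases and chemokines. Cxcl10, a chemokine that draws T cells through Cxcr3, had 4.11, 2.26 and 5.36 CPM in the day 7 libraries, against 116, 209 and 105 CPM in the day 2 libraries, at -5.20 ± 0.29 (SE, adjusted p = 1.36e-13). Cxcl9, a chemokine of the same receptor, changed by -4.42 ± 0.29 (SE, adjusted p = 2.63e-12), and Ccl5, a chemokine for T cells and monocytes, by -4.36 ± 0.31 (SE, adjusted p = 1.12e-11). Zbp1, a sensor of left-handed nucleic acid that can start necroptosis, had 2.63, 1.69 and 3.52 CPM in the day 7 libraries, against 37.4, 63.4 and 49.04 CPM in the day 2 libraries. Its day 7 libraries lay well below its day 2 libraries, at -4.26 ± 0.22 (SE, adjusted p = 3.46e-14). Tgtp2, Oas1g, Ifit3b, Apol9b and Ifi205 belong to families of similar copies among which reads may be split, so their values are uncertain.

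The promoters of this group can be read for the core of the interferon-stimulated response element, the site bound by the STAT and IRF factors of the pathway. The core searched was GAAA, any 2 bases (NN) and GAAA, on both strands, with each window counted once however many matches it held, in RefSeq promoter windows of GRCm38.p6 running from 250 bases before to 50 bases after the gene start. It was found in 18 of 31 interferon-stimulated genes that had a window (58.1%) and in 439 of 12014 tested genes with a window (3.65%). Counted over windows of this length, it was in 52.8% of the group's and in 3.0% of all. The antigen presentation group had it in 4 of 12 genes (33.3%). The lines below show a stretch of 60 bases upstream of the start around 1 match in each of 6 members with low log2 changes, 5' to 3' on the gene's strand, with that match alone in capitals.
Rsad2: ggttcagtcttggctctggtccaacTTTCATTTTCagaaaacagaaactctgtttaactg
Ifit3b: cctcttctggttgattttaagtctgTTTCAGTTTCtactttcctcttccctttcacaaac
Oas1a: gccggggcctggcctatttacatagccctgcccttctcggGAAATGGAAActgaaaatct
Isg15: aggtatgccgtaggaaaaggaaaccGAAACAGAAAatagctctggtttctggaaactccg
Ifit1: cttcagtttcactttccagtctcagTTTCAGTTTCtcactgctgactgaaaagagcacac
Irgm1: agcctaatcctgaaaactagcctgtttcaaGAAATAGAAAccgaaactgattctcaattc
These stretches lie at chr12:26456538-26456597 (Rsad2, minus strand), chr19:34607778-34607837 (Ifit3b, plus strand), chr5:120907526-120907585 (Oas1a, minus strand), chr4:156200850-156200909 (Isg15, minus strand), chr19:34640779-34640838 (Ifit1, plus strand) and chr11:48871421-48871480 (Irgm1, minus strand). In Rsad2, Ifit3b and Ifit1 the core shown is on the opposite strand, so the capitals read as its reverse complement. The capitals begin 20 bases before the start in Oas1a and 30 in Irgm1, against 154 in Ifit3b and 120 in Rsad2. The stretch of Ifit3, at chr19:34583382-34583441, has the same letters as that of Ifit3b. A match describes the letters of the window and does not show that a factor was bound in these cells.

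The interferon-stimulated genes also differed between libraries of the same day. The summed level of the 43 genes was 945, 746.3 and 1378 CPM in the day 7 libraries, against 5164, 7133 and 5782 CPM in the day 2 libraries. The third day 7 library was the highest of its day in 42 of the 43 genes and the second day 7 library the lowest in 43. The second day 2 library was the highest of its day in 42 and the first the lowest in 40. Without the second and the third day 7 libraries and the second day 2 library, 42 genes still fell, and Ifit1 had a log2 change of -3.61. What set these libraries apart was not tested.

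The exception among the 43 genes was Ifi27, a small interferon-inducible membrane protein, with 95.6, 88.1 and 103 CPM in the day 7 libraries, against 59.6, 52.5 and 58.5 CPM in the day 2 libraries. Its groups did not overlap and it rose by 0.75 ± 0.09 (SE, adjusted p = 2.14e-07). Irf7 fell while the receptor genes named here did not. Ifnar1, a chain of the type I interferon receptor, had 108 ± 2.598 CPM at day 7 and 90.8 ± 2.12 CPM at day 2 (SD, n = 3 each) and rose by 0.25 ± 0.06 (SE, adjusted p = 0.000492), and its partner Ifnar2 rose by 0.32 ± 0.06 (SE, adjusted p = 2.32e-05). Ifngr1, a chain of the interferon gamma receptor, rose by 0.55 ± 0.05 (SE, adjusted p = 9.29e-10), and Irf3, a factor that starts interferon production, changed by 0.06 ± 0.07 (SE, adjusted p = 0.483). Of the 17 interferons, receptors and sensors tested, 7 rose and 7 fell, or 6 and 9 with scaling by library totals. The RNA sensor Tlr3 fell by 1.74 ± 0.14 (SE, adjusted p = 1.21e-10) and Irf1, a factor induced by interferon gamma, fell by 1.01 ± 0.08 (SE, adjusted p = 1.94e-10). Ifnb1, the gene of interferon beta, was chosen after its values were seen. It had 1, 0 and 1 counts in the day 7 libraries, against 8, 25 and 10 counts in the day 2 libraries, a ratio of 0.0494 with an exact 95% interval of 0.0058 to 0.19 for counting error only.

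Antigen presentation by class I molecules was lower as well. All 14 genes tested fell, with a median log2 change of -0.99, against 25.8% of all genes lower. Nlrc5, the transactivator of class I genes, had 4.11, 3.77 and 6.85 CPM in the day 7 libraries, against 34.4, 48.4 and 36.1 CPM in the day 2 libraries, without overlap, at -3.02 ± 0.17 (SE, adjusted p = 8.19e-14). Tap1, a chain of the transporter that brings peptides into the endoplasmic reticulum, had 43.2, 35.8 and 44.8 CPM in the day 7 libraries, against 88.997, 127 and 105 CPM in the day 2 libraries, at -1.38 ± 0.09 (SE, adjusted p = 3.08e-12). The immunoproteasome subunit Psmb10 fell by 1.34 ± 0.12 (SE, adjusted p = 9.37e-10). The classical class I chain H2-K1 had 86.4, 68.2 and 81.8 CPM in the day 7 libraries, against 102, 129 and 112 CPM in the day 2 libraries, a smaller difference at -0.54 ± 0.12 (SE, adjusted p = 0.000496). B2m, the light chain of class I molecules, fell by 0.28 ± 0.09 (SE, adjusted p = 0.0126). Without the 3 libraries named above 10 of the 14 genes fell, and H2-K1, H2-D1 and B2m were no longer called. The call of B2m was also lost without the second day 7 library alone or the second day 2 library alone. The H2 genes have near-identical copies, so reads may be split among them.

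**Figure D2:**
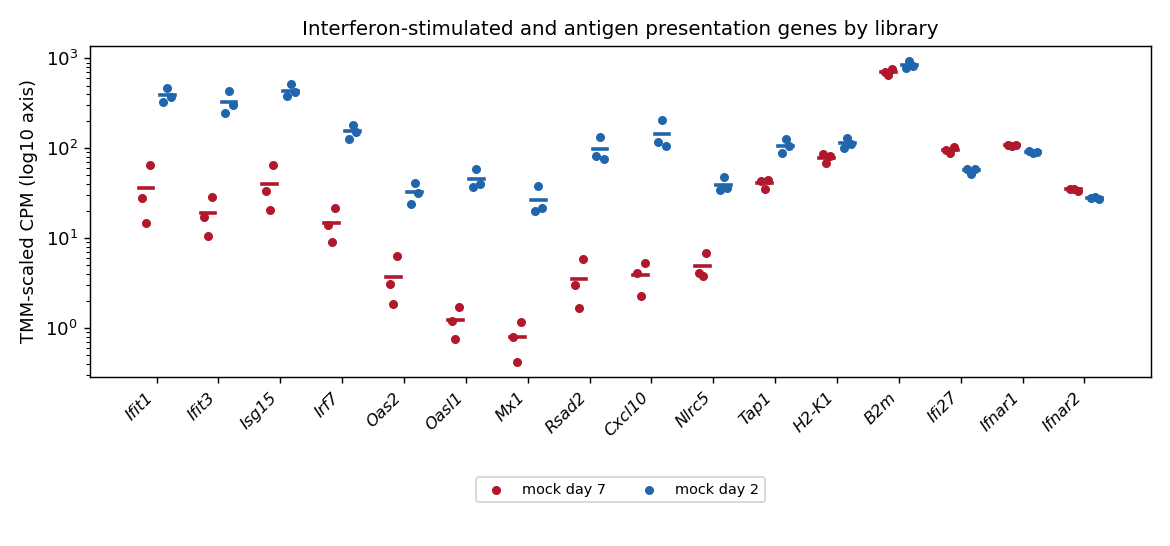
TMM-scaled CPM (log axis) of 16 interferon pathway and antigen presentation genes in each mock library, day 7 left of day 2 for each gene, with 1 point per library and a dash at the group mean. Ifit1 stands at 28.1, 14.9 and 64.6 CPM at day 7 below 326 to 468 CPM at day 2, while Ifi27, Ifnar1 and Ifnar2 are higher at day 7.

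The fibrous matrix moved the opposite way. Of 13 fibrillar and fibril-associated collagens, 12 rose and none fell, against 29.7% of all genes higher, with a median log2 change of 0.83. Their summed level was 70100 to 76390 CPM in the day 7 libraries and 35360 to 38890 CPM in the day 2 libraries. Col1a1 (chr11:94936224-94953042), a chain of collagen I, had 22753, 20885 and 19724 CPM in the day 7 libraries, against 11413, 12361 and 11915 CPM in the day 2 libraries, at 0.83 ± 0.06 (SE, adjusted p = 9e-12). Its partner Col1a2 rose by 0.95 ± 0.06 (SE, adjusted p = 2.45e-13). Col3a1 (chr1:45311538-45349706), the chain of collagen III in loose tissue, had 12760.0, 11678 and 11595 CPM in the day 7 libraries, against 4157, 4956 and 5152 CPM in the day 2 libraries, at 1.34 ± 0.06 (SE, adjusted p = 5.75e-15). In these collagens every day 7 library lay above every day 2 library.

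Of the 13 genes Col14a1, a collagen of fibril surfaces, had the highest log2 change, with 226, 205 and 225 CPM in the day 7 libraries, against 27.2, 31.1 and 33.4 CPM in the day 2 libraries, and rose by 2.84 ± 0.10 (SE, adjusted p = 1.72e-17). Col12a1 had 9949.5 ± 344 CPM at day 7 and 3564 ± 234 CPM at day 2 (SD, n = 3 each), at 1.48 ± 0.13 (SE, adjusted p = 7.82e-10), and Col11a1, a chain that nucleates fibrils, rose by 1.29 ± 0.06 (SE, adjusted p = 6.42e-15). Of 14 basement membrane and other collagens, 10 rose and 2 fell, with a median of 0.84. Col8a2, a chain of short-chain collagen VIII, had 237, 229 and 215 CPM in the day 7 libraries, against 9.24, 14.5 and 16.5 CPM in the day 2 libraries, at 4.08 ± 0.13 (SE, adjusted p = 2.05e-18). Its groups were far apart. Col15a1 rose by 3.30 ± 0.13 (SE, adjusted p = 1.34e-16) and Col4a1, a chain of basement membrane collagen IV, by 0.66 ± 0.05 (SE, adjusted p = 3.74e-11). The 2 that fell were Col7a1, the anchoring fibril collagen, at -1.15 ± 0.05 (SE, adjusted p = 2.95e-15), and Col18a1, the source of endostatin, at -0.82 ± 0.07 (SE, adjusted p = 1.06e-10).

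Eln (chr5:134702593-134747323), the precursor of elastin, had the highest log2 change of the matrix genes tested. It had 2013, 1677 and 1373 CPM in the day 7 libraries, against 29.996, 42.05 and 41.8 CPM in the day 2 libraries, a 44.5-fold difference at 5.47 ± 0.19 (SE, adjusted p = 1.56e-17). No day 2 library came near the day 7 range, and the first day 7 library was the highest. Of 17 elastic fibre genes, 12 rose and 3 fell, with a median of 0.63, and 5 fell with scaling by library totals. Mfap4, a glycoprotein that binds elastin and fibrillin, had 705, 624 and 603 CPM in the day 7 libraries, against 89.99, 126 and 127 CPM in the day 2 libraries, at 2.49 ± 0.10 (SE, adjusted p = 6e-16). The microfibril chain Fbn2 rose by 1.80 ± 0.13 (SE, adjusted p = 1.21e-11) and Fbn1 by 0.43 ± 0.11 (SE, adjusted p = 0.00134). Fbln5, needed to lay elastin on microfibrils, rose by 0.45 ± 0.04 (SE, adjusted p = 2.38e-09). Mfap2 and the latent TGF-beta binding proteins Ltbp2, Ltbp3 and Ltbp4 changed by 1.58, 1.55, 0.95 and 1.29, and all 4 rose. Emilin2, Efemp1 and Ltbp1 changed by -0.74 ± 0.06, -0.17 ± 0.05 and -0.16 ± 0.05 and fell, and Efemp1 and Ltbp1 were not called without the 3 libraries named above. Ltbp1 was not called without the first day 2 library either.

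All 11 small leucine-rich proteoglycans rose, with a median log2 change of 2.38. These proteins coat collagen fibrils and set their width. Dcn, decorin, had 944, 889 and 897 CPM in the day 7 libraries, against 134, 171 and 182 CPM in the day 2 libraries, at 2.48 ± 0.09 (SE, adjusted p = 2.16e-17). Lum, lumican, had 425, 395 and 415 CPM in the day 7 libraries, against 41.5, 57.3 and 64.7 CPM in the day 2 libraries, at 2.92 ± 0.11 (SE, adjusted p = 1.07e-16). Their day 7 libraries lay above their day 2 libraries without overlap. Prelp rose by 3.24 ± 0.11 (SE, adjusted p = 1.09e-17), Fmod by 2.38 ± 0.09 (SE, adjusted p = 4.29e-17) and Kera, keratocan, by 4.80 ± 0.21 (SE, adjusted p = 7.55e-15). Bgn, biglycan, rose least among the named members, at 0.59 ± 0.06 (SE, adjusted p = 1.21e-08).

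Adhesive and matricellular proteins were mixed, with 7 of 12 higher and 3 lower at a median of 0.37. Comp, a pentameric protein that bridges collagens, had 44.5, 41.1 and 37.3 CPM in the day 7 libraries, against 1.75, 1.79 and 2.39 CPM in the day 2 libraries, at 4.38 ± 0.12 (SE, adjusted p = 2.51e-19). Postn, periostin, rose by 1.23 ± 0.09 (SE, adjusted p = 6.76e-12), Sparc, a collagen-binding glycoprotein, by 0.93 ± 0.04 (SE, adjusted p = 3.08e-15) and Vcan, the large proteoglycan versican, by 1.08 ± 0.11 (SE, adjusted p = 9.15e-09). Spp1, osteopontin, fell, with 275, 269 and 293 CPM in the day 7 libraries, against 626, 647 and 693 CPM in the day 2 libraries, at -1.23 ± 0.15 (SE, adjusted p = 2.52e-07). Tnc, tenascin C, fell by 0.35 ± 0.08 (SE, adjusted p = 0.000805). Fn1, fibronectin, had 9895, 9882 and 9262 CPM in the day 7 libraries, against 12009, 12770.0 and 12459 CPM in the day 2 libraries, at -0.36 ± 0.13 (SE, adjusted p = 0.023). The groups did not overlap, but the call was lost without the third day 7 library, without the second day 2 library and without the 3 libraries together, with adjusted p up to 0.313 over the alternatives.

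Enzymes that modify or cleave the matrix differed gene by gene. Of 19 genes for cross-linking and modification, 10 rose and 7 fell, or 9 and 9 with scaling by library totals. Lox, the oxidase that starts cross-links of collagen and elastin, had 5217, 4986 and 5066 CPM in the day 7 libraries, against 2088, 2324 and 2354 CPM in the day 2 libraries, at 1.17 ± 0.05 (SE, adjusted p = 2.03e-15), with no overlap. Adamts2, which trims collagen propeptides, rose by 1.30 ± 0.07 (SE, adjusted p = 3.3e-14) and Serpinh1, the collagen chaperone, by 0.24 ± 0.04 (SE, adjusted p = 5.23e-06). P4ha1, a prolyl hydroxylase, fell by 0.29 ± 0.04 (SE, adjusted p = 3.44e-07) and Bmp1, which trims the propeptide at the other end, fell by 0.31 ± 0.04 (SE, adjusted p = 6.62e-08). Of 19 proteases and inhibitors, 12 rose and 5 fell. Mmp2, gelatinase A, rose by 0.93 ± 0.06 (SE, adjusted p = 5.6e-13), and the inhibitor Timp3 rose by 2.26 ± 0.08 (SE, adjusted p = 5.33e-17) while Timp1 fell by 0.56 ± 0.08 (SE, adjusted p = 1.37e-06). Of the plasminogen system, the activators Plau and Plat changed by -0.60 ± 0.08 and -0.85 ± 0.05, and both fell.

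**Figure D3:**
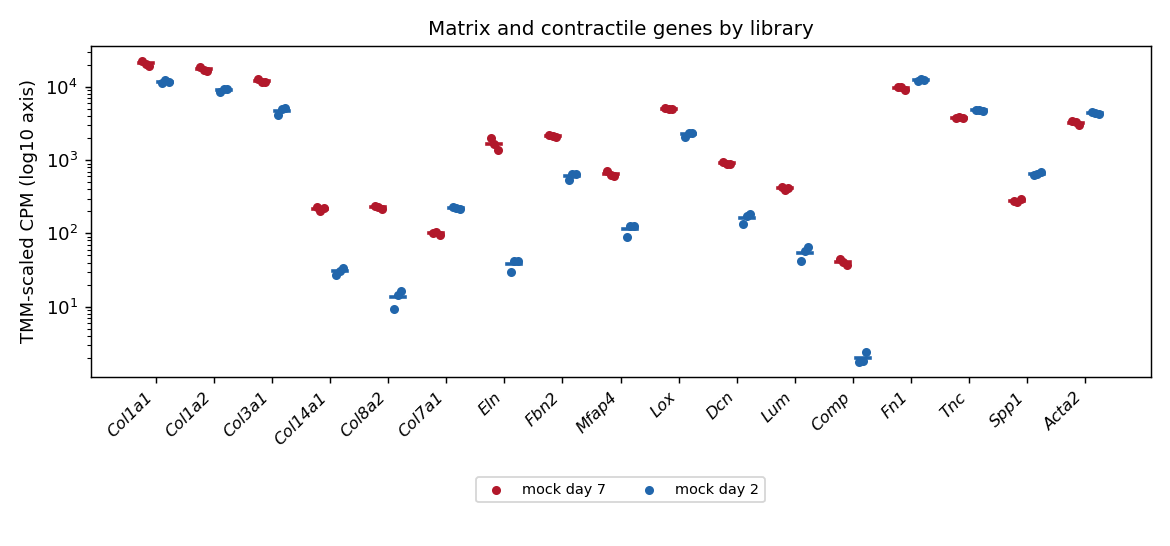
TMM-scaled CPM (log axis) of 17 matrix and contractile genes in each mock library, day 7 left of day 2 for each gene, with 1 point per library and a dash at the group mean. Eln stands at 1373 to 2013 CPM at day 7 above 29.996 to 42.05 CPM at day 2, and Fn1, Tnc, Spp1 and Acta2 are lower at day 7.

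Contractile genes of smooth muscle and myofibroblasts did not share this rise as a group. Of 17 tested, 4 rose and 10 fell, with a median of -0.18. Acta2, smooth muscle actin, had 3438, 3348 and 2996 CPM in the day 7 libraries, against 4605, 4398 and 4286 CPM in the day 2 libraries, at -0.44 ± 0.06 (SE, adjusted p = 4.02e-07). Tagln fell by 0.47 ± 0.07 (SE, adjusted p = 2.14e-06) and Tpm1 fell by 0.59 ± 0.05 (SE, adjusted p = 1.97e-10), while Mylk, the kinase of the myosin light chain, rose by 1.24 ± 0.06 (SE, adjusted p = 3.09e-15) and Myh11, smooth muscle myosin, by 0.60 ± 0.07 (SE, adjusted p = 1.97e-07). Of 19 genes that respond to TGF-beta or YAP, 7 rose and 10 fell. Ctgf, a matrix-associated growth factor, had 317, 302 and 317 CPM in the day 7 libraries, against 594, 509 and 497 CPM in the day 2 libraries, at -0.77 ± 0.07 (SE, adjusted p = 3.77e-09). Ankrd1, a YAP target, fell by 0.82 ± 0.09 (SE, adjusted p = 9.63e-09), and Cyr61 changed by -0.01 ± 0.06 (SE, adjusted p = 0.895).

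Fibroblast identity genes rose in 12 of 20 cases and fell in 4, at a median of 0.47, and 2 fell without the 3 libraries named above. Pdgfra, the receptor of embryonic mesenchyme, had 502, 489.9 and 521 CPM in the day 7 libraries, against 253, 291 and 314 CPM in the day 2 libraries, at 0.82 ± 0.06 (SE, adjusted p = 2.38e-11). Dpt, dermatopontin, had 428, 398 and 422 CPM in the day 7 libraries, against 79.8, 103 and 99.9 CPM in the day 2 libraries, at 2.14 ± 0.09 (SE, adjusted p = 5.22e-16), with wide separation of the days. Prrx1, a transcription factor of limb mesenchyme, rose by 0.54 ± 0.05 (SE, adjusted p = 5.47e-10), Twist1 by 0.52 ± 0.06 (SE, adjusted p = 4.37e-08) and Fap by 1.4 ± 0.09 (SE, adjusted p = 6.83e-13). Vim, vimentin, fell by 0.32 ± 0.05 (SE, adjusted p = 2.27e-05) and the surface antigen Ly6a fell by 0.67 ± 0.12 (SE, adjusted p = 5.36e-05), and Thy1 changed by -0.09 ± 0.05 (SE, adjusted p = 0.138).

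Mitotic genes were lower at day 7 by modest amounts. Of 29 G2 and M phase genes, 27 fell and none rose, against 25.8% of all genes lower, at a median log2 change of -0.5. Top2a, the topoisomerase that untangles chromosomes, had 149, 151 and 149 CPM in the day 7 libraries, against 229, 199 and 208 CPM in the day 2 libraries, at -0.50 ± 0.09 (SE, adjusted p = 3.67e-05). Ccnb1, mitotic cyclin B, had 27.6, 28.8 and 26.6 CPM in the day 7 libraries, against 46.03, 40.9 and 39.9 CPM in the day 2 libraries, at -0.61 ± 0.07 (SE, adjusted p = 8.99e-08). Mki67, the proliferation antigen, had 166, 170.01 and 174 CPM in the day 7 libraries, against 250.3, 215 and 227 CPM in the day 2 libraries, at -0.44 ± 0.14 (SE, adjusted p = 0.00869). The groups did not overlap in these 3 genes, and the first day 2 library was the highest of its day in all 29 genes. The mitotic kinases Aurka and Plk1 changed by -0.74 ± 0.09 and -0.66 ± 0.08, and Cdc20, which activates the anaphase-promoting complex, by -0.58 ± 0.07, and all 3 fell. Without the 3 libraries named above 25 genes fell, and Mki67 was not called.

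Many mitotic promoters hold the cell cycle homology region, a short sequence through which MuvB complexes act. The letters TTTGAA, on either strand of the same RefSeq windows, were found in 18 of 24 G2 and M phase genes with a window (75.0%). They were in 1716 of 12014 tested genes (14.3%) and in 12.1% of all windows. Among other groups they were in 3 of 23 S phase genes (13.0%), 5 of 23 glycolysis genes (21.7%), 6 of 31 interferon-stimulated genes (19.4%) and 4 of 9 small leucine-rich proteoglycans (44.4%). Matches of this motif and of the interferon core shared bases in 7 tested genes, 0 of them in this group. The stretches below show 3 mitotic genes whose values are given above, with 1 match in capitals. The stretch of Mki67 holds a second match, left in lower case.
Cdc20: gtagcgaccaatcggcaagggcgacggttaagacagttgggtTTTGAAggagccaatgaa
Top2a: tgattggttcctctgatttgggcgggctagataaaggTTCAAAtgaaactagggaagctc
Mki67: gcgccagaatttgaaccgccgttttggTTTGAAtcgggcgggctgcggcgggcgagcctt
They lie at chr4:118437344-118437403 (Cdc20), chr11:99024190-99024249 (Top2a, capitals as the reverse complement) and chr7:135716445-135716504 (Mki67), all on the minus strand. The capitals begin 18 bases before the start in Cdc20, 23 in Top2a and 98 in Mki67.

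Replication and cell cycle exit genes went with less uniformity. Of 29 S phase genes, 3 rose and 14 fell, at a median of -0.19. Without the 3 libraries named above, 8 fell. Uhrf1, which reads hemimethylated DNA, fell by 0.81 ± 0.09 (SE, adjusted p = 5.71e-08), Mcm6 of the replicative helicase fell by 0.51 ± 0.05 (SE, adjusted p = 5.1e-09), and Pcna changed by 0.04 ± 0.07 (SE, adjusted p = 0.643). Of 18 inhibitors and exit genes, 10 rose and 2 fell, or 1 fell without the first or second day 7 library, the second or the third day 2 library or the 3 libraries together, and with no filter on low counts. Cdkn1c, the imprinted inhibitor p57, had 263, 256 and 251 CPM in the day 7 libraries, against 31.02, 35.1 and 38.03 CPM in the day 2 libraries, at 2.88 ± 0.10 (SE, adjusted p = 4.99e-18). Its days were far apart. Cdkn2a, the locus of p16 and ARF, had 88.2, 89.97 and 81.9 CPM in the day 7 libraries, against 34.3, 32.8 and 32.7 CPM in the day 2 libraries, at 1.38 ± 0.08 (SE, adjusted p = 9.38e-14), and Gas1, named for growth arrest, rose by 1.12 ± 0.06 (SE, adjusted p = 2.39e-13). Cdkn1a, the p53 target p21, changed by 0.06 ± 0.04 (SE, adjusted p = 0.25). Of 22 p53 targets, 11 rose and 7 fell, and scaling by library totals turned this to 7 and 10. Of these targets 4 fell with no filter on low counts and 3 without the 3 libraries. Sesn1 was at 1.24 ± 0.06 (SE, adjusted p = 2.75e-15) and Mdm2 at -0.49 ± 0.04 (SE, adjusted p = 1.76e-10). Of 14 senescence and secretory genes, 4 rose and 8 fell. The list was not divided by the direction each gene takes in senescence, so these counts do not show whether senescence changed. The 4 that rose were Cdkn2a at 1.38, Cdkn2b at 0.567, Igfbp3 at 4.294 and Mmp3 at 2.063. Those that fell included Hmga2, a chromatin protein of embryonic cells, at -1.45 ± 0.07 (SE, adjusted p = 1.21e-14), Hmga1 at -1.91 ± 0.08 (SE, adjusted p = 4.73e-16) and Lmnb1, lamin B1, at -0.55 ± 0.06 (SE, adjusted p = 2.43e-08).

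Growth-related genes were lower. Of 20 ribosome biogenesis genes, 19 fell and none rose, at a median of -0.44. Ncl, nucleolin, had 495, 499 and 503 CPM in the day 7 libraries, against 721, 679 and 660.2 CPM in the day 2 libraries, at -0.46 ± 0.04 (SE, adjusted p = 2.54e-09), and Dkc1, the pseudouridine synthase, fell by 0.71 ± 0.07 (SE, adjusted p = 1.04e-09). Of 46 cytosolic ribosomal protein genes, 17 fell and none rose, at a median of -0.14. That count was 32 with the 6 mock libraries alone, 31 with scaling by library totals and 2 without the 3 libraries named above. Myc, a driver of ribosome production, had 29.6, 28.4 and 27.99 CPM in the day 7 libraries, against 54.4, 48.4 and 46.6 CPM in the day 2 libraries, at -0.80 ± 0.07 (SE, adjusted p = 3e-10), without overlap of the days. Of 24 immediate early and ERK feedback genes, 4 rose and 15 fell, at a median of -0.4, and 2 rose without the 3 libraries. Fosl1, a Fos-family factor, fell by 2.04 ± 0.11 (SE, adjusted p = 5.67e-14), Dusp4, a phosphatase of ERK, fell by 1.05 ± 0.06 (SE, adjusted p = 6.6e-13) and Etv4, an ERK-driven factor, fell by 1.00 ± 0.10 (SE, adjusted p = 3.01e-09). Spry1, an inhibitor of the same pathway, rose by 0.68 ± 0.07 (SE, adjusted p = 3.52e-09). Also higher were the immediate early genes Fos, at 0.519 (adjusted p = 0.000342), and Egr1, at 0.145 (adjusted p = 0.0207). Spred1 rose by 0.233 (adjusted p = 0.000172). The call of Egr1 was lost with scaling by library totals and without some of the single mock libraries.

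Glycolysis genes were lower in most steps. Of 23 tested, 19 fell and 4 rose, at a median log2 change of -0.8, and their summed level was 3308 to 3709 CPM at day 7 and 6081 to 6799 CPM at day 2. Slc2a1, the glucose transporter Glut1, had 56.2, 54.2 and 51.5 CPM in the day 7 libraries, against 123, 109 and 104 CPM in the day 2 libraries, at -1.05 ± 0.06 (SE, adjusted p = 5.96e-14). Pgk1, phosphoglycerate kinase, had 188, 178 and 168 CPM in the day 7 libraries, against 387, 369 and 349.7 CPM in the day 2 libraries, at -1.05 ± 0.06 (SE, adjusted p = 1e-13). Ldha, which makes lactate, had 453, 446 and 412 CPM in the day 7 libraries, against 867, 789.8 and 765 CPM in the day 2 libraries, at -0.89 ± 0.06 (SE, adjusted p = 1.59e-11). In these 3 genes the days did not overlap. Hk2, hexokinase, fell by 1.33 ± 0.06 (SE, adjusted p = 7.69e-16), Eno1, enolase, fell by 1.09 ± 0.06 (SE, adjusted p = 1.39e-13) and Slc16a3, the lactate exporter, fell by 2.15 ± 0.07 (SE, adjusted p = 2.86e-18). Those that rose were the other lactate transporter Slc16a1 at 0.52, the muscle-type Pfkm at 0.49, Aldoc at 0.45 and Ldhb at 0.23. The call of Aldoc was lost without the first or second day 7 library or the first or second day 2 library, with the replicate number as a block, with the 6 mock libraries alone, with scaling by library totals and with DESeq2, at adjusted p up to 0.325. With scaling by library totals 2 of the 23 rose, and Ldhb was not called.

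Of 27 genes regulated by HIF, the hypoxia factor, 8 rose and 12 fell, or 5 rose with scaling by library totals, with Car12 at -1.54 ± 0.11 (SE, adjusted p = 1.98e-11) and Vegfa at -0.36 ± 0.05 (SE, adjusted p = 1.42e-06). Of 28 fatty acid oxidation genes, 17 rose and 2 fell, at a median of only 0.16, and 10 rose with scaling by library totals and 1 fell without the 3 libraries named above. Angptl4, an inhibitor of lipoprotein lipase, had 53.3, 57.5 and 53.96 CPM in the day 7 libraries, against 21.02, 19.1 and 21.5 CPM in the day 2 libraries, at 1.42 ± 0.06 (SE, adjusted p = 3.95e-16). Pdk4, which turns pyruvate away from oxidation, rose by 1.04 ± 0.08 (SE, adjusted p = 2.08e-11) and the carrier Ucp2 by 1.55 ± 0.10 (SE, adjusted p = 7.82e-13). Of 51 oxidative phosphorylation genes 2 rose and 16 fell, at a median of -0.09, and 1 rose when any single mock library was left out, with the replicate block and with scaling by library totals, but 5 with no filter on low counts. The number lower was 29 with scaling by library totals, 28 with the 6 mock libraries alone and 6 without the 3 libraries named above. Tested genes were also grouped by combined exon length. The median log2 change was -0.068 in the shortest group (median 1264 bases) and 0.049 in the longest (median 9387 bases). The oxidative phosphorylation genes had a median length of 1928 bases, between the shortest group and the next (median 2626 bases, log2 change 0). Whether length played a part in their changes was not tested.

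Genes of the insulin-like growth factor axis were higher at day 7. Of 26 insulin, IGF and FoxO genes, 19 rose and 3 fell, at a median of 0.52, and 5 fell with scaling by library totals. Igf1 (chr10:87858265-87937042), a growth factor that fibroblasts secrete, had 395, 365 and 409.9 CPM in the day 7 libraries, against 21.05, 25.02 and 26.8 CPM in the day 2 libraries, at 4.00 ± 0.08 (SE, adjusted p = 2.1e-21). Igfbp3, the main carrier of circulating IGF, had 1608, 1419 and 1484 CPM in the day 7 libraries, against 56.7, 83.96 and 89.3 CPM in the day 2 libraries, at 4.29 ± 0.11 (SE, adjusted p = 5.28e-20). Neither gene's groups came near each other. Igfbp2 rose by 3.46 ± 0.12 (SE, adjusted p = 2.16e-17), Igfbp4 by 2.22 ± 0.08 (SE, adjusted p = 7.56e-17) and Igfbp5 by 1.6 ± 0.11 (SE, adjusted p = 1e-11), while the receptor Igf1r fell by 0.32 ± 0.06 (SE, adjusted p = 0.000141). Txnip, a FoxO and glucose-responsive gene that limits glucose uptake, had 315, 332 and 298 CPM in the day 7 libraries, against 125, 143 and 138 CPM in the day 2 libraries, at 1.22 ± 0.06 (SE, adjusted p = 8.33e-15). Irs1, a docking protein of the receptors, rose by 1.34 ± 0.10 (SE, adjusted p = 2e-11) and Irs2 fell by 0.46 ± 0.09 (SE, adjusted p = 0.000105).

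Imprinted genes, expressed from 1 parental copy in some or all tissues, rose in 14 of 16 cases and fell in 1, at a median of 0.61. Many of them are regulators of fetal growth, and the parental copy in use was not tested here. Dlk1, a membrane protein that holds back adipocyte differentiation, had 835, 678 and 639 CPM in the day 7 libraries, against 31.8, 38.96 and 35.9 CPM in the day 2 libraries, at 4.33 ± 0.10 (SE, adjusted p = 1.11e-20). H19, a noncoding RNA, had 3500.0, 3181 and 3096 CPM in the day 7 libraries, against 1165, 1467 and 1417 CPM in the day 2 libraries, at 1.27 ± 0.09 (SE, adjusted p = 1.11e-11), and its neighbour Igf2 had 2582, 2210.3 and 2131 CPM in the day 7 libraries, against 1084, 1324 and 1219.7 CPM in the day 2 libraries, at 0.93 ± 0.07 (SE, adjusted p = 1.86e-11). The days did not overlap in these 3 genes. Mest rose by 1.72 ± 0.07 (SE, adjusted p = 1.67e-16) and the zinc finger factor Plagl1 by 1.90 ± 0.07 (SE, adjusted p = 1.87e-16). The exception was Slc38a4, an amino acid transporter, at -0.95 ± 0.07 (SE, adjusted p = 3.06e-11), and 2 genes fell with scaling by library totals or with the 6 mock libraries alone. Dcn, Cdkn1c and Igf2 also stand in groups described above.

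Wnt pathway genes rose in 20 of 27 cases and fell in 3, at a median of 0.8. The rise included both receptors and secreted inhibitors. Lgr5, a receptor of R-spondins, had 542, 508 and 589 CPM in the day 7 libraries, against 31.5, 48.2 and 51.2 CPM in the day 2 libraries, at 3.65 ± 0.12 (SE, adjusted p = 1.21e-17). Sfrp1, which binds Wnt proteins outside the cell, had 481, 480.1 and 465 CPM in the day 7 libraries, against 43.8, 62.4 and 64.5 CPM in the day 2 libraries, at 3.06 ± 0.12 (SE, adjusted p = 7.65e-17). Sfrp2 rose by 3.68 ± 0.10 (SE, adjusted p = 4.12e-19) and the feedback inhibitor Nkd1 by 2.40 ± 0.07 (SE, adjusted p = 3e-19). Lef1 and Tcf7, the transcription factors that act with beta-catenin, fell at log2 changes of -2.04 ± 0.23 and -1.4 ± 0.14, at no more than a few CPM, and the target Axin2 rose by 0.57 ± 0.12 (SE, adjusted p = 0.000264).

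Guidance molecules of semaphorin, ephrin and Slit families rose in 18 of 22 cases and fell in 3, or in 1 without the 3 libraries named above, at a median of 0.53. Slit2, a ligand of Robo receptors, had 828, 807 and 828 CPM in the day 7 libraries, against 214, 216 and 216 CPM in the day 2 libraries, at 1.93 ± 0.08 (SE, adjusted p = 3.07e-16). Its receptor Robo2 had 86.3, 85.9 and 90.3 CPM in the day 7 libraries, against 6.94, 8.39 and 8.59 CPM in the day 2 libraries, at 3.46 ± 0.09 (SE, adjusted p = 4.03e-20). In both the day 7 libraries were all higher. Sema3d rose by 3.10 ± 0.09 (SE, adjusted p = 1.77e-19) and Sema3c by 2.29 ± 0.06 (SE, adjusted p = 5.28e-20), and Sema3e fell by 1.14 ± 0.06 (SE, adjusted p = 2.16e-14). Retinoid and thyroid hormone genes rose in 12 of 19 cases and fell in 3, with the retinaldehyde dehydrogenase Aldh1a1 at 3.39 ± 0.08 (SE, adjusted p = 3.02e-20), the thyroid receptor Thrb at 2.97 ± 0.10 (SE, adjusted p = 1.23e-17) and the retinoid binder Crabp1 at -1.44 ± 0.11 (SE, adjusted p = 2.14e-11). Of 12 Notch genes 6 rose and 2 fell, with the ligand Jag1 at 0.88 ± 0.05 (SE, adjusted p = 2.17e-13) and the DNA-binding partner Rbpj at -0.63 ± 0.05 (SE, adjusted p = 1.35e-10). Of 16 glucocorticoid response genes 8 rose and 5 fell, or 3 fell without the third day 7 library or the third day 2 library and 2 without the 3 libraries named above, with Tsc22d3 at 0.98 ± 0.06 (SE, adjusted p = 6.79e-13) and Fkbp5 at -0.59 ± 0.06 (SE, adjusted p = 2.25e-08).

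Complement and acute phase genes rose in 12 of 13 cases with none lower, at a median of 1.96. C3, the central component, had 79.3, 73.9 and 72.3 CPM in the day 7 libraries, against 2.099, 2.65 and 3.02 CPM in the day 2 libraries, at 4.86 ± 0.10 (SE, adjusted p = 3.72e-21). Its days were clearly separate. C1s1, a protease of the first component, rose by 1.97 ± 0.09 (SE, adjusted p = 5.72e-15) and C4b by 1.76 ± 0.09 (SE, adjusted p = 1.52e-14). The group also holds C1qa and C1qb, which macrophages make. Inflammatory and NF-kB genes were divided, with 9 of 24 higher and 11 lower, or 9 and 9 without the 3 libraries named above. Ccl2, a chemokine for monocytes, had 32.1, 29.4 and 32.1 CPM in the day 7 libraries, against 91.5, 109 and 89.6 CPM in the day 2 libraries, at -1.63 ± 0.11 (SE, adjusted p = 4.21e-12), and Ccl7 fell by 1.61 ± 0.13 (SE, adjusted p = 9.25e-11). Il1rl1, the receptor of interleukin 33, had 107, 107 and 111 CPM in the day 7 libraries, against 547, 485 and 457 CPM in the day 2 libraries, at -2.20 ± 0.10 (SE, adjusted p = 3.99e-15). Ptgs2, cyclooxygenase, fell by 1.31 ± 0.10 (SE, adjusted p = 1.94e-11), while Cxcl5 rose by 0.81 ± 0.11 (SE, adjusted p = 1.04e-06).

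Macrophage markers rose in 23 of 24 cases, with none lower and a median log2 change of 3.02. Lyz2, lysozyme, had 271, 187 and 258 CPM in the day 7 libraries, against 28.6, 25.05 and 29.1 CPM in the day 2 libraries, at 3.11 ± 0.14 (SE, adjusted p = 1.57e-15). Csf1r, the receptor that macrophages need to survive, had 34.9, 21.4 and 35.1 CPM in the day 7 libraries, against 3.38, 3.71 and 3.77 CPM in the day 2 libraries, at 3.07 ± 0.15 (SE, adjusted p = 6.97e-15). Adgre1, a surface receptor long used to mark macrophages, had 27.5, 18.6 and 26.8 CPM in the day 7 libraries, against 2.01, 2.55 and 1.496 CPM in the day 2 libraries, at 3.58 ± 0.18 (SE, adjusted p = 1.67e-14). In all 3 the day 7 libraries lay above the day 2 libraries. Mrc1, the mannose receptor, rose by 5.04 ± 0.14 (SE, adjusted p = 3.64e-19), and Cx3cr1, the fractalkine receptor, by 3.95 ± 0.23 (SE, adjusted p = 1.93e-13). The summed level of all 25 listed markers was 1035, 811.1 and 1032 CPM at day 7, against 329.4, 349.2 and 338.2 CPM at day 2. A narrower set of 15 macrophage markers summed to 409 to 593.1 CPM at day 7 and 57.97 to 59.79 CPM at day 2. Most of the day 2 sum of the longer list thus came from markers outside the narrower set. The second day 7 library was the lowest of its day in 22 of 24 markers, and it was also the lowest for the interferon-stimulated genes. Without the 3 libraries named above, 23 markers rose. RNA of macrophage genes was thus present in the mock cultures on both days, and its part in the complement and interferon results was not tested.

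Mesothelial genes rose too. Msln, mesothelin, had 65.4, 70.7 and 59.2 CPM in the day 7 libraries, against 13.1, 12.6 and 12.3 CPM in the day 2 libraries, at 2.36 ± 0.08 (SE, adjusted p = 6.37e-18). Upk3b, a marker of mesothelium, had 65.8, 70.1 and 61.7 CPM in the day 7 libraries, against 5.89, 5.98 and 6.31 CPM in the day 2 libraries, at 3.44 ± 0.08 (SE, adjusted p = 1.27e-20). The groups did not overlap. Lrrn4 rose by 3.63 ± 0.12 (SE, adjusted p = 8.42e-18) and Wt1, a factor of mesothelium and kidney, by 1.29 ± 0.10 (SE, adjusted p = 3.85e-11). Of 10 epithelial and mesothelial markers tested 6 rose and 2 fell, or 1 fell with the 6 mock libraries alone. All 15 listed markers summed to 210.3 to 235.3 CPM at day 7 and 47.84 to 53.23 CPM at day 2. The 2 that fell were Krt18, at -0.72 ± 0.11 (SE, adjusted p = 5.08e-06), and Krt5, at -3.22. Of 10 lymphocyte, mast cell and neutrophil markers, Cd3e, Cd8a and S100a9 were at 0 counts in all 6 libraries, which allows up to 0.0922 CPM in the smallest, and the sum was 0.8866 to 1.056 CPM at day 7 and 0.4874 to 0.748 CPM at day 2. The sum of 9 endothelial markers, 137 to 139.4 CPM at day 7 and 134.3 to 148.2 CPM at day 2, overlapped between the days and came mostly from Flt1, a receptor of VEGF. Of 13 endothelial genes tested 5 rose and 1 fell, or 3 rose without the 3 libraries named above, and 2 fell with scaling by library totals or with the 6 mock libraries alone. Erg, a transcription factor of endothelium, rose by 1.4 ± 0.13 (SE, adjusted p = 2.5e-09), the receptor Tek by 1.59 ± 0.16 (SE, adjusted p = 7.76e-09) and Plvap, a protein of endothelial fenestrae, by 1.62 ± 0.23 (SE, adjusted p = 1.39e-06). Kdr, another VEGF receptor, was at 0.50 ± 0.15 (SE, adjusted p = 0.00724), a call lost without the 3 libraries. Vwf, von Willebrand factor, was at 0.71 ± 0.30 (SE, adjusted p = 0.0487) and under 1 CPM, and its call was lost without any single library other than the first day 2 library, without the 3 libraries, with the 6 mock libraries alone, with scaling by library totals and with DESeq2, at adjusted p up to 0.234. Egfl7, a secreted endothelial protein, fell by 0.73 ± 0.12 (SE, adjusted p = 1.73e-05). Pecam1 changed by -0.52 ± 0.36 (SE, adjusted p = 0.319) and Cdh5 by 0.09 ± 0.43 (SE, adjusted p = 0.887), both at under 1 CPM. Among 17 genes of neurons and glia, 7 were higher and 3 lower, with Nes, nestin, at -1.56 ± 0.07 (SE, adjusted p = 1.19e-15) and Map2, a microtubule protein, at 2.21 ± 0.10 (SE, adjusted p = 5.94e-15).

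**Figure D4:**
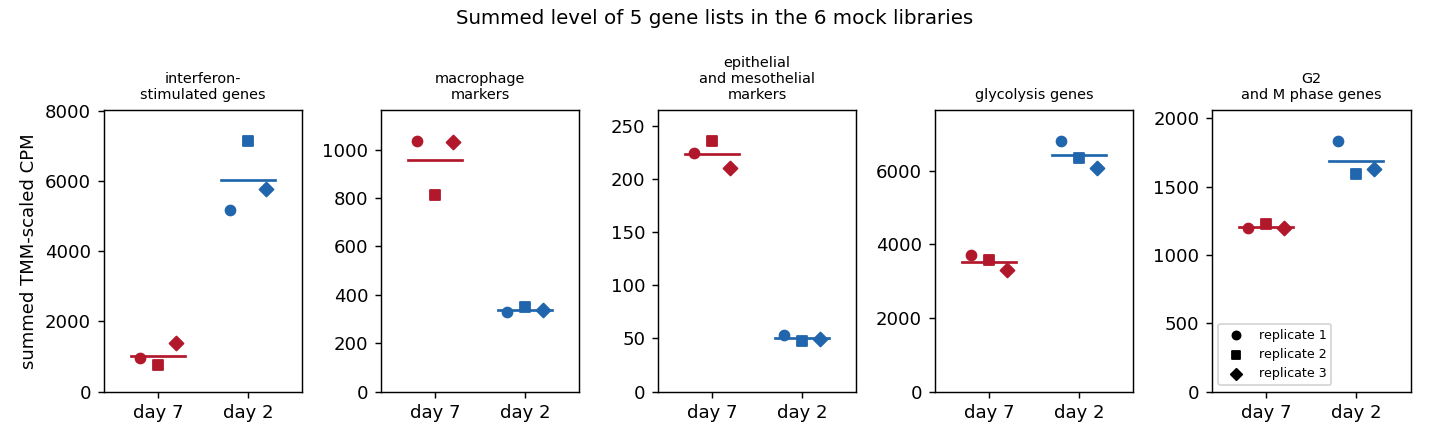
Summed TMM-scaled CPM of 5 gene groups in each of the 6 mock libraries, day 7 libraries left of day 2 libraries. The sum of interferon-stimulated genes is 746.3 to 1378 CPM at day 7 and 5164 to 7133 CPM at day 2, and that of macrophage markers 811.1 to 1035 CPM at day 7 and 329.4 to 349.2 CPM at day 2.

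The 12 genes with the highest log2 change among those at 5 CPM or more whose libraries did not overlap were Reg1, Saa3, Cdh8, Eln, Clec3b, Fcrls, Adamts17, Mrc1, C3, Cpxm2, Kera and Cxcl15. Reg1, a secreted lectin first known from the pancreas, had 16.8, 15.1 and 16.2 CPM in the day 7 libraries, against 0.233, 0.108 and 0.0598 CPM in the day 2 libraries, at 6.87 ± 0.20 (SE, adjusted p = 8.27e-19). Saa3, an acute phase protein that mouse fibroblasts and macrophages make, had 8.69, 8.48 and 7.704 CPM in the day 7 libraries, against 0.233, 0.0541 and 0.0299 CPM in the day 2 libraries, at 6.25 ± 0.30 (SE, adjusted p = 8.31e-15). At day 2 Reg1 rested on 8, 4 and 2 counts and Saa3 on 8, 2 and 1 counts, so the size of their change is imprecise. Clec3b, tetranectin, rose by 5.46 ± 0.29 (SE, adjusted p = 6.15e-14), Cdh8, a cadherin, by 5.78 ± 0.21 (SE, adjusted p = 2.38e-17) and Cpxm2, a carboxypeptidase-like protein, by 4.84 ± 0.08 (SE, adjusted p = 7.54e-23). Fcrls, a gene of macrophages and microglia, rose by 5.17 ± 0.19 (SE, adjusted p = 2.99e-17).

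Genes of fat, cartilage, bone and muscle lineages showed no common direction. Of 20 adipocyte genes 11 rose and 5 fell, or 3 fell without the 3 libraries named above. Lpl, lipoprotein lipase, had 368, 342 and 376 CPM in the day 7 libraries, against 35.7, 48.3 and 48.4 CPM in the day 2 libraries, at 3.04 ± 0.08 (SE, adjusted p = 8.97e-20), with the day 7 libraries all higher. Pparg, the factor of fat cells, had 3.85 ± 0.129 CPM at day 7 and 3.08 ± 0.183 CPM at day 2 (SD, n = 3 each) and rose by 0.32 ± 0.12 (SE, adjusted p = 0.0281), a call lost without the second or the third day 7 library, the first or second day 2 library or the 3 libraries together, and with scaling by library totals, at adjusted p up to 0.305. Of 15 cartilage and bone genes 4 rose and 5 fell, or 3 fell with the 6 mock libraries alone and the replicate block, with Col10a1 at 2.30 ± 0.09 (SE, adjusted p = 2.81e-16), Runx2 at -0.36 ± 0.06 (SE, adjusted p = 1.34e-05) and Sox9 at -0.07 ± 0.09 (SE, adjusted p = 0.502). Of 14 skeletal muscle genes 5 rose and 3 fell, and of 20 cardiac genes 4 rose and 3 fell, or 3 and 4 with scaling by library totals, all at low levels except for the widely expressed Atp2a2 and for Acta1, skeletal actin, which fell by 1.06 ± 0.11 (SE, adjusted p = 1.48e-08). Tnnt2, cardiac troponin T, rose by 1.23 ± 0.10 (SE, adjusted p = 1.52e-10).

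Stress and housekeeping groups went in both directions, and many of their counts moved with the scaling or the libraries used. Of 29 ATF4 genes 10 rose and 10 fell, or 5 and 13 with scaling by library totals. Of 21 genes of the unfolded protein response 5 rose and 8 fell. In that group 5 fell without the third day 7 library or with no filter on low counts, 3 rose and 1 fell without the 3 libraries named above, and 3 rose with scaling by library totals. Of 15 heat shock genes 2 rose and 8 fell, or 1 rose with scaling by library totals, with the chaperone Hsp90ab1 at -0.37 ± 0.04 (SE, adjusted p = 3.17e-08) and the small heat shock protein Cryab at 1.37 ± 0.07 (SE, adjusted p = 2.74e-14). Of 21 NRF2 and oxidative stress genes 8 rose and 6 fell, or 5 and 8 with scaling by library totals and 7 and 8 with the 6 mock libraries alone, with extracellular superoxide dismutase Sod3 at 1.67 ± 0.09 (SE, adjusted p = 1.04e-13) and Gpx3, a secreted glutathione peroxidase, at 1.51 ± 0.05 (SE, adjusted p = 2.19e-18). Of 25 sterol synthesis genes 5 rose and 9 fell, or 3 rose without the first day 7 or the first day 2 library. Of these sterol genes 2 rose and 13 fell with scaling by library totals, and 5 rose and 3 fell without the 3 libraries. Of 20 fatty acid synthesis genes 4 rose and 7 fell, and 2 rose with scaling by library totals or without the 3 libraries. Of 24 lysosome and autophagy genes 11 rose and 7 fell, with the protease Ctsd at 0.47 ± 0.07 (SE, adjusted p = 2.8e-06). Without the 3 libraries 2 of the 24 fell, and with scaling by library totals 8 rose and 10 fell. Of 16 clock genes 7 rose and 3 fell, or 4 and 5 with scaling by library totals, with Arntl, the partner of Clock, at -0.48 ± 0.06 (SE, adjusted p = 8.25e-08). Of 6 class II antigen presentation genes 2 rose and 1 fell, at a few CPM at most, and 1 rose without the first day 7, first day 2 or second day 2 library, with the 6 mock libraries alone or with DESeq2.

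The day change of mock cells was set against the mean day change of the GMT, GHMT and AGHMT cells, to show which genes moved differently in mock culture. The mock and cocktail day changes share no library. The median change of fibrillar collagens and small proteoglycans was above 0 in mock and below 0 in the cocktails, and that of glycolysis genes was below 0 in mock and above 0 in the cocktails. Interferon-stimulated genes and G2 and M phase genes had medians below 0 in all 4 treatments. By edgeR's test of the difference itself, 9788 of 17576 genes (55.7%) differed, with the mock change higher in 5068 (28.8%) and lower in 4720 (26.9%). Of 5748 genes called in both mock and GMT, 3222 went the same way (56.1%). The share was 53.6% of 5605 genes with GHMT and 53.2% of 6053 with AGHMT.

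The median log2 day change of fibrillar collagens was 0.83 in mock, against -1.04 in GMT, -0.54 in GHMT and -0.36 in AGHMT, and the mock change was higher in 12 of 13 genes and lower in 1. Col3a1 changed by 1.34 in mock, against -2.30 in GMT, -2.20 in GHMT and -1.40 in AGHMT, a difference of 3.30 ± 0.08 (SE, adjusted p = 4.44e-21). Eln changed by 5.47 in mock, against -2.97 in GMT, -3.04 in GHMT and -1.69 in AGHMT, a difference of 8.04 ± 0.23 (SE, adjusted p = 2.44e-19). The small proteoglycans had a median of 2.38 in mock, against -1.2 in GMT, -0.64 in GHMT and -0.25 in AGHMT. The imprinted group had 0.61 in mock, against -1.02 in GMT, -1 in GHMT and -0.86 in AGHMT.

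Interferon-stimulated genes had a median day change of -2.94 in mock, against -0.88 in GMT, -1.7 in GHMT and -2.43 in AGHMT, with the mock change lower in 39 of 43 genes and higher in none. Ifit1 changed by -3.44 in mock, against -1.08 in GMT, -2.09 in GHMT and -4.09 in AGHMT, a difference of -1.02 ± 0.33 (SE, adjusted p = 0.0109). Antigen presentation had -0.99 in mock, against -0.35 in GMT, -0.7 in GHMT and -1.05 in AGHMT. Macrophage markers had 3.02 in mock, against -0.19 in GMT, 0.52 in GHMT and 1.37 in AGHMT, and Lyz2 differed by 2.09 ± 0.16 (SE, adjusted p = 6.03e-11). The mesothelial and epithelial group had 1.04 in mock, against 1.64 in GMT, 1.46 in GHMT and 1.45 in AGHMT.

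Glycolysis genes had a median of -0.8 in mock, against 0.38 in GMT, 0.09 in GHMT and 0.27 in AGHMT, and the mock change was lower in 20 of 23 genes. Pgk1 changed by -1.05 in mock, against 0.37 in GMT, -0.05 in GHMT and 0.54 in AGHMT, a difference of -1.34 ± 0.07 (SE, adjusted p = 1.19e-14). Immediate early and ERK feedback genes had -0.4 in mock, against 0.48 in GMT, 0.67 in GHMT and 0.58 in AGHMT. The mitotic group had -0.5 in mock, against -0.87 in GMT, -0.72 in GHMT and -0.72 in AGHMT, and for Mki67 the difference of 0.35 ± 0.16 (SE, adjusted p = 0.0687) did not pass the threshold. The labels do not say whether mock and cocktail cells had the same medium, and its part in these differences was not tested.

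**Figure D5:**
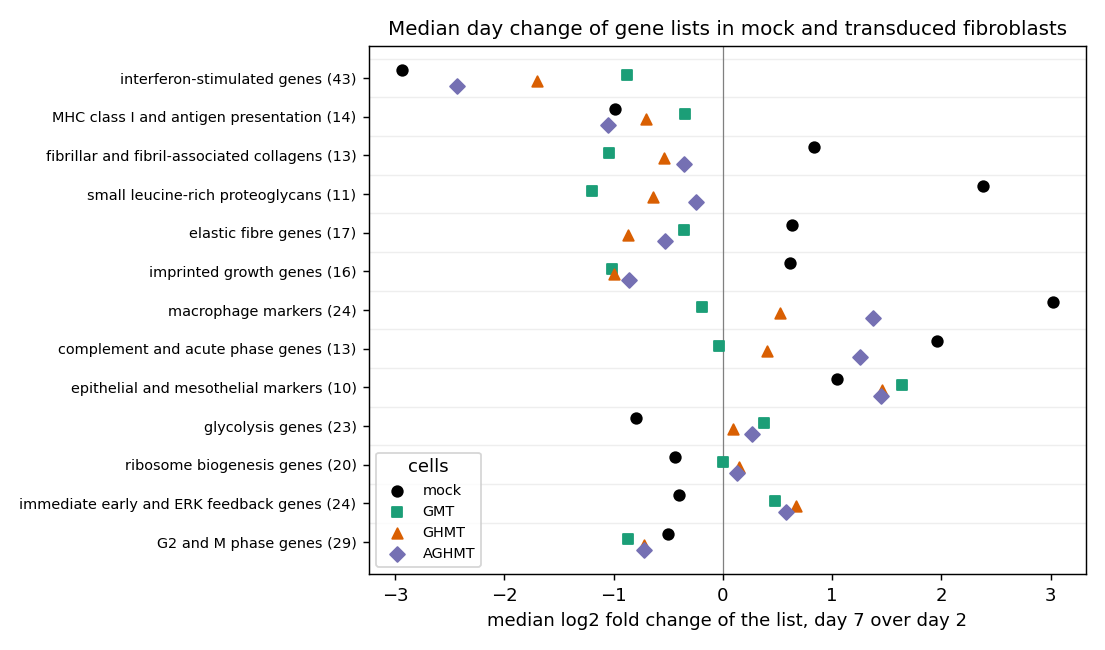
Median log2 day change (day 7 minus day 2) of 13 gene groups in mock, GMT, GHMT and AGHMT fibroblasts, 1 marker per treatment. Fibrillar collagens stand at 0.83 in mock against -1.04 in GMT, and glycolysis genes at -0.8 in mock against 0.38 in GMT.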

How the data were processed

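Total RNA of mouse embryonic fibroblasts was sequenced in 24 libraries, 3 in each of 8 groups, of which the 3 mock libraries at day 7 and the 3 at day 2 were compared. Groups and replicate numbers came from the labels. The deposited table holds whole-number counts of reads for 47967 genes that the authors had not normalized. Per the submitters' processing notes, the build was GRCm38, also named mm10, and the tools were DESeq2 1.6.3, featureCounts 1.4.6, HISAT2 2.0.1 and Trim Galore 0.4.1. Strand setting and annotation are not stated in the sources used, so overlapping and antisense genes cannot be told apart. The deposited log2 table was not used.

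Genes passing edgeR's filterByExpr, 17576 in all, entered a quasi-likelihood F test (edgeR 4.0.16, R 4.3.3, TMM factors, two-sided) with 1 mean per group over 24 libraries and 16 residual degrees of freedom. Biological variation, as edgeR's common coefficient, was 5.55%. A Benjamini-Hochberg adjusted p under 0.05 over all genes was called, and the mock day change was tested against the mean of the 3 cocktail day changes in the same fit. Levels are TMM-scaled CPM. The Ifnb1 interval is exact binomial (Clopper-Pearson). Coordinates came from GENCODE M21 on GRCm38, matched for 99.7% of tested genes, and promoter sequences from RefSeq on GRCm38.p6.

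The 52 gene lists, from textbook knowledge, and the genes to be named were chosen with earlier results of these data known. Named were the 12 highest and 12 lowest called genes of at least 5 CPM without overlap of libraries, core members of each list, up to 5 further members by smallest adjusted p, and members called against their list's majority. Pseudogenes and gene models without a proper name could not be among the 12 at either end, and some results on chosen genes are left out here. The code was tested on simulated counts of the mock comparison with 16135 genes. It called 5 of 50 genes set to a 1.2-fold change, 39 of 50 set to 1.5-fold, 44 of 50 set to 2-fold, all 50 set to 4-fold, and 4 of the 15935 left alone. Only these sets of 50 genes changed in the simulation, against 55.5% of genes called in the data. The shares therefore test the code and do not give the recovery of the mock comparison itself. Alternatives were DESeq2 1.42.0, RLE factors, no filter, a 2-fold minimum, the replicate number as a block, the 6 mock libraries alone, and each library left out. Scaling by library totals and leaving out 3 mock libraries together were alternatives chosen after seeing the data.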

Additional observations from a re-analysis of the deposited data

Results flagged for a closer look

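The day change differed between mock fibroblasts and the mean of the GMT, GHMT and AGHMT fibroblasts in many genes, by edgeR's quasi-likelihood test of the difference itself. The mock change was higher in 5068 genes and lower in 4720. In the values below, a positive log2 difference means that the gene's change from day 2 to day 7 was higher in mock than in the cocktails. All values below passed at an adjusted p under 0.05 over all genes.

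Among matrix genes, the difference was 1.82 for Col1a1, 2.45 for Col1a2, 3.3 for Col3a1 and 1.2 for Col5a1. For elastic fibre genes it was 8.04 for Eln, 5.14 for Mfap4, 1.29 for Fbln5 and 1.27 for Fbn1. For the mitotic genes Ccna2, Top2a and Ccnb1 it was 0.61, 0.34 and 0.33.

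Among interferon-stimulated genes, the difference was -1.02 for Ifit1, -1.59 for Ifit3, -1.61 for Isg15, -1.48 for Irf7 and -1.68 for Oas2. The cocktails differed, and GMT had the smallest fall in each of these genes. AGHMT changed by -4.088 in Ifit1, against -3.438 in mock, by -3.335 in Isg15, against -3.464, and by -3.325 in Irf7, against -3.386. In Ifit3 it was -3.449 in AGHMT, against -4.127 in mock, and in Oas2 -2.732, against -3.125. Among macrophage markers the difference was 2.09 for Lyz2, 1.97 for Cd68, 3.36 for Mrc1, 1.78 for Csf1r, 2.64 for Adgre1 and 2.91 for C1qb. Among glycolysis genes it was -1.52 for Slc2a1, -2.31 for Hk2, -1.34 for Pgk1, -1.13 for Pkm, -0.95 for Ldha and -1.02 for Pdk1. Of the 30 genes chosen for this comparison 29 were called, and Mki67 was not.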

How the results depend on the processing

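The 5217 genes higher and 4537 lower became 5101 and 4292 with DESeq2, 5263 and 4479 with RLE factors, 5593 and 4101 with no filter on low counts, and 5037 and 4906 with the 6 mock libraries alone. With scaling by library totals they were 4036 and 6134, which turned the balance of higher and lower. Leaving out 1 mock library gave 4807 to 5013 higher and 4028 to 4231 lower, and without the second and the third day 7 and the second day 2 libraries 4275 were higher and 2926 lower. Fewer libraries enter that fit, which leaves day 7 with 1 library that is assumed to vary like the other groups. A 2-fold minimum left 1479 genes higher and 955 lower. Of the 52 lists' members, 387 were higher and 366 lower, or 164 and 93 with the 2-fold minimum.

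Between mock libraries of the same replicate number, the correlation of deviations from the group mean was -0.006, -0.042 and 0.025 for the 3 numbers. Over all pairs of groups it ran from -0.213 to 0.274. These values cannot show whether libraries of the same number shared a culture. With the replicate number as a block 5190 genes were higher and 4515 lower, and with the 6 mock libraries alone and the block 5031 and 4870. Leaving out single libraries gave 4755 to 5437 genes with a higher mock change than in the cocktails and 4382 to 5147 with a lower one.

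Of 531 named genes, the call was the same for 526 with DESeq2 and 486 with scaling by library totals. A change of direction was counted only for genes called in the main fit or in the alternative. Pax3, at about 1 CPM, had a log2 change of 0.65 and reversed to -0.076 without the 3 libraries, and the cause was not tested. Small changes are limited by depth and by 3 libraries a day, and counts of groups with medians near 0 depend on the scaling.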
